A study of Homo sapiens with 24 samples.

Results

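The cyclins, the cyclin-dependent kinases (CDKs), their inhibitors, the CDC25 phosphatases and the RB and E2F families were followed in 4 aneuploid human cell lines. The 43 genes were taken by name from the authors' tables of fold changes, which together hold 16742 genes. All 43 had a value in RPE1* 21/3, and 42 had one in each of the other 3 lines, always with a mean of at least 10 normalized reads. CCND2 was not analysed here in those 3 lines. HCT116 is a near-diploid colon carcinoma line, and RPE1 is a retinal pigment epithelium line immortalized with hTERT. HCT116 5/4 carries 4 copies of chromosome 5 and was compared with HCT116. HCT116* 8/3 c7 carries 3 copies of chromosome 8 and, like its parental line HCT116*, stably expresses histone H2B fused to GFP. RPE1 5/3 12/3 carries 3 copies of chromosomes 5 and 12 and was compared with RPE1. RPE1* 21/3 carries 3 copies of chromosome 21 and, like its parental line RPE1*, expresses H2B-GFP. Per the study's methods, HCT116 5/4 was a gift from another laboratory, and the other 3 aneuploid lines were made by chromosome transfer. The study describes the additional chromosome 12 of RPE1 5/3 12/3 as gained spontaneously. It also describes the lines it made as clonal, so effects of clone and of extra chromosome cannot be told apart in these comparisons. Each group had 3 libraries, and no label states whether these came from separate cultures, so the errors given may be technical.

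In the cell cycle, D cyclins bind CDK4 and CDK6, and the kinases phosphorylate RB1 and its relatives, which then release E2F factors. E2F factors with a DP partner switch on the genes of the G1/S transition, cyclin E with CDK2 carries the cell into S phase, and cyclins A and B with CDK1 carry it into mitosis. The INK4 proteins (CDKN2A to CDKN2D) block CDK4 and CDK6, and the CIP/KIP proteins (here CDKN1B and CDKN1C) block cyclin E and cyclin A complexes.

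Windows of 30 bases around E2F sites and CHR elements are shown because these elements are known from promoters of G1/S and G2/M genes, respectively. The E2F site was searched as TTTNNCGC with each N a C or a G, the CHR element as TTTGAA and the CCAAT box as CCAAT, on both strands, from 250 bases before to 50 bases after each start in RefSeq on GRCh38.p14. Promoters were found for 34 of the 43 genes. CCND1, CCND2, CCNE2, CDK2, CDKN1C, E2F5, E2F8, WEE1 and PKMYT1 had no entry. Windows are written 5′ to 3′ on the strand of the gene, with the element in capitals. The RBL1 window also holds another match of the E2F site, left in lower case. The first 4 hold E2F sites and the last 4 hold CHR elements. They lie, in order, at chr20:33686387-33686416 on the minus strand, chr1:23531257-23531286 on the minus strand, chr3:48188443-48188472 on the minus strand, chr20:37095995-37096024 on the minus strand, chr15:59105105-59105134 on the plus strand, chr5:138331817-138331846 on the minus strand, chr10:60778453-60778482 on the plus strand and chr1:154974639-154974668 on the plus strand.
E2F1: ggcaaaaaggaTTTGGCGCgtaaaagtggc
E2F2: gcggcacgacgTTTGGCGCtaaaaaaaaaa
CDC25A: ggtggattccgTTTGGCGCcaactaggaaa
RBL1: ttttcgcgcgcTTTGGCGCaggtggttgtg
CCNB2: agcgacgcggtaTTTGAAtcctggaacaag
CDC25C: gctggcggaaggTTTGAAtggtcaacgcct
CDK1: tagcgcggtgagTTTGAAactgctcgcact
CKS1B: gcgggcggcgtgTTTGAAagcgaggccaaa
The E2F site was found in 7 of the 34 genes (CDC25A, CDK1, E2F1, E2F2, E2F3, RBL1 and TFDP1) and in 3.99% of the 27305 genes of the table (3.31% of its 35116 promoters). The CHR element was found in 10 of the 34 genes and in 18.2% of all genes, and the CCAAT box in 20 of the 34 genes and in 39.7% of all genes. A match describes letters in these windows only. In HCT116 5/4, the log2 fold changes of the 7 genes with an E2F site ran from -0.40 to 0.89 with a median of -0.04, and E2F1 alone was called.

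Each difference is the log2 fold change of an aneuploid line over its parental line in the authors' deposited tables, given with its standard error. A gene is said to have risen or fallen, or to be called, at an adjusted p below 0.05 in those tables together with an absolute log2 fold change above 0.6. Single libraries were not used here, so each group is described by the mean that the fold change and the mean over both groups imply. Of 9 markers of colon epithelium, 7 had a mean of at least 10 in both HCT116 tables and 2 in both RPE1 tables. Of 9 markers of pigment epithelium and mesenchymal cells, 8 and 6 reached that mean in the RPE1 tables, led by VIM and FN1, and 5 in both HCT116 tables. Markers of the pigment epithelium were mixed. TYR had no value in any table. RPE65 had means of 10.4 and 4.58 in the RPE1 tables, against 287 and 194 in the HCT116 tables. PMEL likewise had 17.8 and 14.8 against 97.1 and 137. MITF went the other way, with 1439 and 1124 against 67.4 and 62.0. So did BEST1, with 42.7 and 41.3 against 7.50 and 2.62. RLBP1 had 32.4 and 4.77 in the RPE1 tables and no value in the HCT116 tables. The markers also changed with the lines in which most of the genes below changed. In HCT116 5/4, 5 of 7 colon markers were called, with fold changes of the list from -3.26 to 1.57, and so were 5 of 5 of the other list, from -3.20 to 2.74. In RPE1 5/3 12/3, 4 of 8 markers of the second list were called, from -3.27 to 3.35. In the other 2 lines 0 were called, with 0 to 2 of either list at an unadjusted p below 0.05 in the authors' DESeq2 tables. The part of these shifts in the results below was not tested.

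Most calls fell in HCT116 5/4, where 12 of 42 genes were called, 9 higher and 3 lower. That is 28.6% of them, beside 20.6% of all 13887 genes tested in this line, with 10.8% of all genes higher and 9.83% lower. In RPE1 5/3 12/3, 5 of 42 genes were called, 4 higher and 1 lower, beside 16.6% of all genes, 8.13% higher and 8.47% lower. In HCT116* 8/3 c7, 1 gene was higher and 1 lower, beside 1.8% of all genes, 0.945% higher and 0.858% lower. In RPE1* 21/3, 1 gene was lower and 0 were higher, beside 3.31% of all genes, 1.66% higher and 1.65% lower. At an unadjusted p below 0.05, 23 genes were found in HCT116 5/4, 10 in RPE1 5/3 12/3, 4 in HCT116* 8/3 c7 and 3 in RPE1* 21/3. Over the 4 lines, 18 of the 43 genes were called at least once. CDK6 and E2F5 were each called in 2 lines, in opposite directions, and no gene was called in 3. The other 25 genes had fold changes between -0.59 and 0.63. Interval widths differed between lines. The largest standard error was 0.18 in HCT116* 8/3 c7, against 0.81 in HCT116 5/4, 0.78 in RPE1 5/3 12/3 and 0.56 in RPE1* 21/3. Such a ceiling points to a prior on the fold changes. With that prior undone, errors in HCT116* 8/3 c7 went from 0.13 to 0.15 for RB1 and from 0.18 to 0.35 for CCNF. The intervals counted next keep the prior, so the count for HCT116* 8/3 c7 is not a measure of precision alone. The 95% interval lay wholly between -0.6 and 0.6 for 39 of 42 genes in HCT116* 8/3 c7, but for 5 of 42 in HCT116 5/4, 18 of 42 in RPE1 5/3 12/3 and 10 of 43 in RPE1* 21/3.

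**Figure D1:**
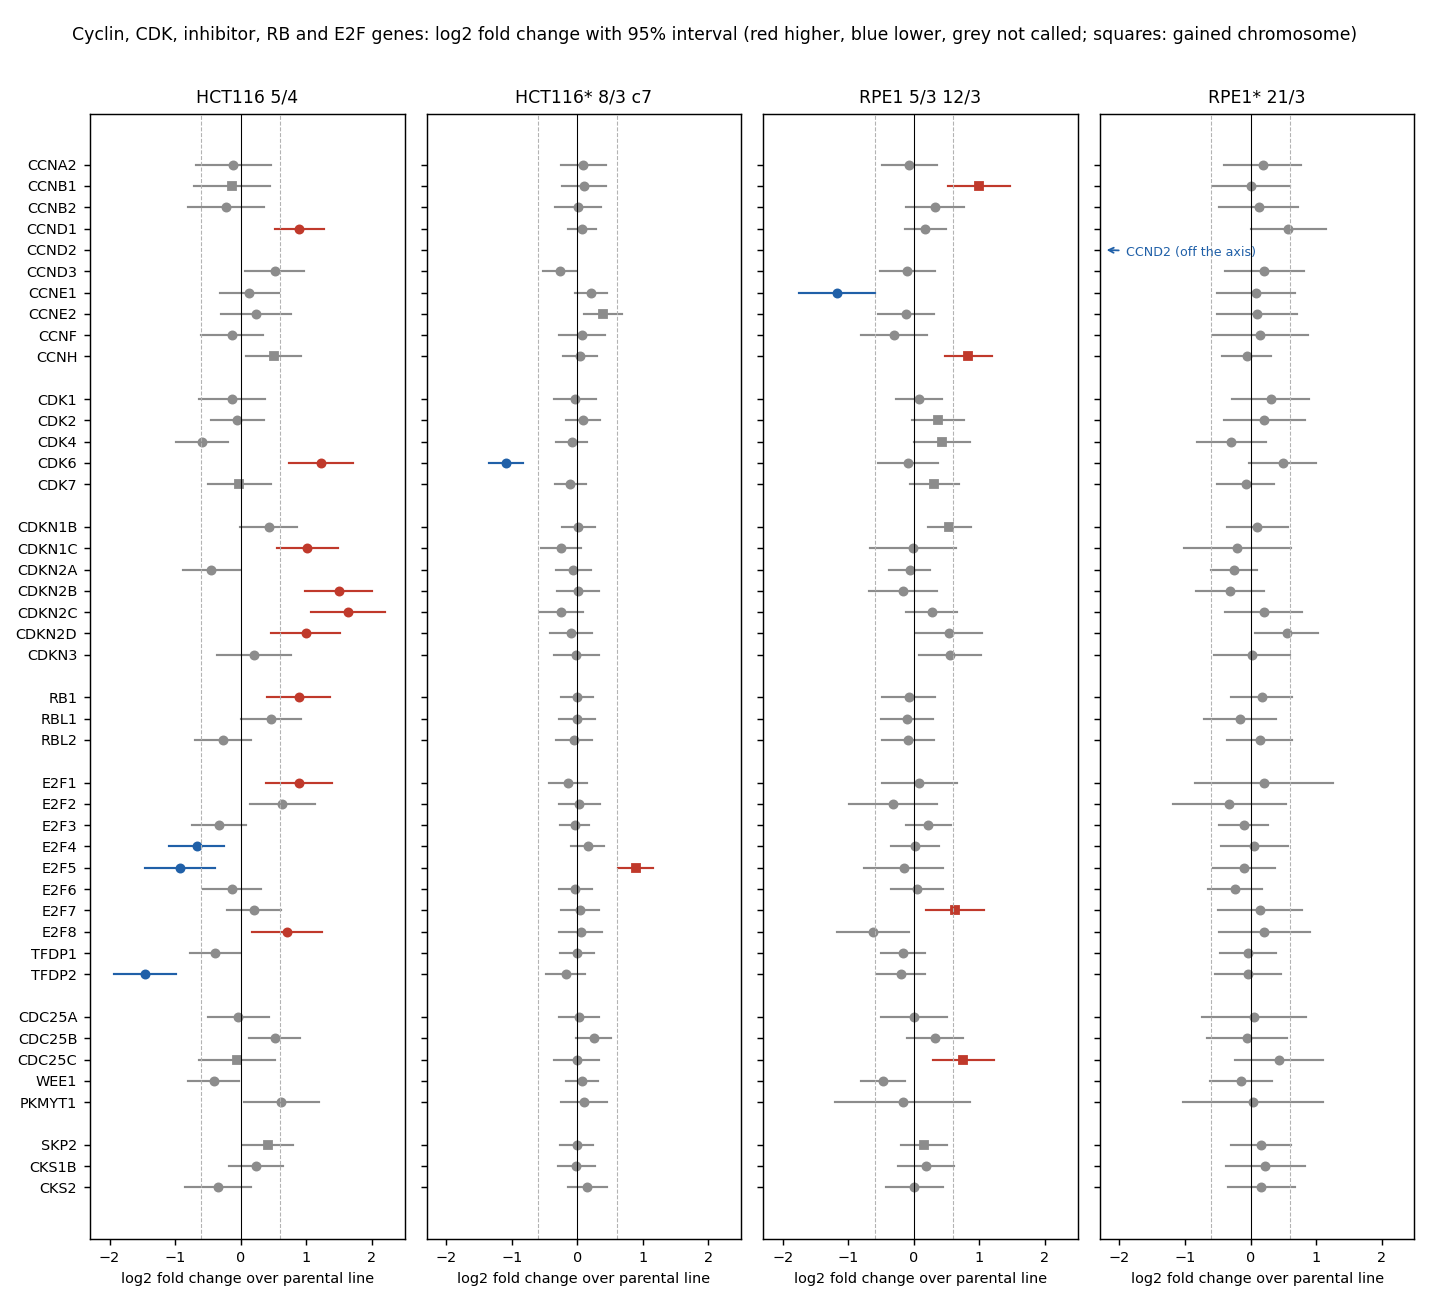
Log2 fold change of the 43 genes over the parental line in each aneuploid line, 1 panel per line, genes grouped by family. Points give the fold change and bars its 95% interval, with red for higher, blue for lower, grey for not called and squares for genes on a gained chromosome. The dashed lines stand at -0.6 and 0.6, and the red points lie mostly in HCT116 5/4.

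Of the 7 CDK inhibitors, 4 rose in HCT116 5/4, where 10.8% of all genes rose, and none fell. Their median log2 fold change was 0.99, against 0.00 for all genes. In RNA of whole cultures, a change in the share of cells in a phase of the cycle and a change in RNA per cell cannot be told apart. CDKN2C (p18, chr1:51426417-51440306 on GRCh37, the build of all coordinates from here on) had implied means of 155 normalized reads in HCT116 and 481 in HCT116 5/4, a log2 fold change of 1.63 ± 0.29 (SE) with an adjusted p of 2.69e-07 in the authors' DESeq2 table. CDKN2B (p15, chr9:22002902-22009304) rose from an implied 151 to 425 normalized reads, by 1.49 ± 0.26. CDKN2D (p19) rose by 0.99 ± 0.27 and CDKN1C (p57) by 1.02 ± 0.24. The inhibitors thus included 3 of the 4 INK4 genes. The fourth, CDKN2A, which encodes p16 and ARF, lies 7.6 kb from CDKN2B in the annotation and had -0.45 ± 0.22 with an adjusted p of 0.15 in the authors' DESeq2 table. The 95% interval of CDKN2A, -0.88 to -0.02, did not overlap that of CDKN2B, 0.98 to 2.01. CDKN1B (p27) had 0.43 ± 0.22 and CDKN3, a phosphatase that acts on CDKs, had 0.20 ± 0.29. In the other 3 lines the authors' DESeq2 tables gave 0 called inhibitors (at an unadjusted p below 0.05, 3 in RPE1 5/3 12/3, 1 in RPE1* 21/3 and 0 in HCT116* 8/3 c7), and the 7 fold changes lay between -0.25 and 0.02 in HCT116* 8/3 c7, between -0.17 and 0.55 in RPE1 5/3 12/3 and between -0.31 and 0.55 in RPE1* 21/3.

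Of the partners that these inhibitors act on, only CDK6 and CCND1 were called in HCT116 5/4. CDK6 (chr7:92234235-92465887) rose by 1.23 ± 0.25, from an implied 2210 to 5174 normalized reads, with an adjusted p of 1.28e-05 in the authors' DESeq2 table. CCND1, cyclin D1, rose by 0.89 ± 0.19, from an implied 13665 to 25410. CDK4, the relative of CDK6, had -0.59 ± 0.20 with an adjusted p of 0.022 in the same DESeq2 table, just short of the fold required. CCND3 had 0.52 ± 0.23. CDK1, CDK2 and CDK7 lay between -0.14 and -0.02. In HCT116 5/4 the 2 kinases of D cyclins therefore had fold changes of opposite sign, of which that of CDK6 was called.

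In the RB and E2F families of HCT116 5/4, RB1 rose by 0.89 ± 0.25, E2F1 by 0.89 ± 0.26 and E2F8, an atypical E2F that acts as a repressor, by 0.71 ± 0.27. TFDP2, which encodes a DP partner of the E2F factors, fell from an implied 2369 to 863 normalized reads, at -1.46 ± 0.24 with an adjusted p of 3.22e-08 in the authors' DESeq2 table. E2F5 had -0.93 ± 0.27 and E2F4 -0.67 ± 0.21, and both fell. E2F4 and E2F5 are the E2Fs known to bind the pocket proteins RBL1 and RBL2. E2F2 had 0.63 ± 0.25 and missed the threshold, at an adjusted p of 0.057 in the authors' DESeq2 table. The relatives of RB1 were not called, with 0.47 ± 0.23 for RBL1 and -0.27 ± 0.21 for RBL2, and TFDP1 had -0.40 ± 0.20.

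The genes that act downstream were counted in HCT116 5/4 as well. Of the 11 genes of G1/S known to be driven by E2F, 3 rose (E2F1, E2F8 and CDKN2C), beside 10.8% of all genes. These 3 are calls already given above. None of the 11 fell, and their median was 0.41. Of 29 other E2F targets, mostly genes of DNA replication, only CDC6 was called, at 0.69 ± 0.23, beside 20.6% of all genes. The median of these targets was 0.21. 24 of the 29 had a fold change above 0. Of the 10 genes of G2/M (CCNA2, CCNB1, CCNB2, CCNF, CDK1, CDC25B, CDC25C, CKS2, CDKN3 and PKMYT1), 0 were called and 2 had an unadjusted p below 0.05 in the authors' DESeq2 table, with a median of -0.12. CDC25B, one of these, had an adjusted p of 0.048 in the authors' DESeq2 table, at 0.52 ± 0.20. The standard errors of these 10 genes were wide for their level, as given further on. Of 13 further G2/M genes, 0 were called and 1 had an unadjusted p below 0.05 in the same DESeq2 table, with a median of -0.07. CCNE1 and CCNE2, the E cyclins, had 0.13 ± 0.23 and 0.23 ± 0.27. WEE1, the kinase that holds CDK1 inactive, had -0.41 ± 0.20, and its relative PKMYT1 had 0.62 ± 0.29. SKP2, CKS1B and CKS2, which take part in degrading CDKN1B or bind CDKs, had 0.41, 0.24 and -0.34.

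In HCT116* 8/3 c7, the other line derived from HCT116, CDK6 and E2F5 were called. CDK6 fell from an implied 2645 to 1244 normalized reads, a log2 fold change of -1.09 ± 0.13 with an adjusted p of 1.84e-13 in the authors' DESeq2 table. E2F5, which lies on the gained chromosome 8 at chr8:86089389-86129387, rose from an implied 205 to 380, by 0.89 ± 0.14. CCNE2, the other gene of the set on chromosome 8, had 0.39 ± 0.15 with an adjusted p of 0.18 in the authors' DESeq2 table. All other 39 genes lay between -0.27 and 0.25. The median absolute fold change of the 42 genes was 0.070, beside 0.093 over all genes of this table.

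The fold changes of the 2 HCT116-derived lines were compared directly, with a Wald test of their difference adjusted over all genes, since the lines share no library. 12 of 42 genes differed, beside 18.9% of all 13570 genes. CDK6 differed most, by 2.32 ± 0.28 (95% interval 1.76 to 2.87), followed by CDKN2C at 1.88 ± 0.33, E2F5 at -1.82 ± 0.30 and CDKN2B at 1.49 ± 0.31. CDKN1C, CDKN2D, E2F1, RB1, CCND1 and CCND3 were also higher in HCT116 5/4 by this measure, at differences of 1.27, 1.08, 1.03, 0.89, 0.82 and 0.79. TFDP2 and E2F4 were lower, at -1.28 and -0.83. CCND3 was called in neither line alone, and its difference had an interval of 0.27 to 1.31. E2F8 was called in HCT116 5/4 and did not pass the test of the difference.

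**Figure D2:**
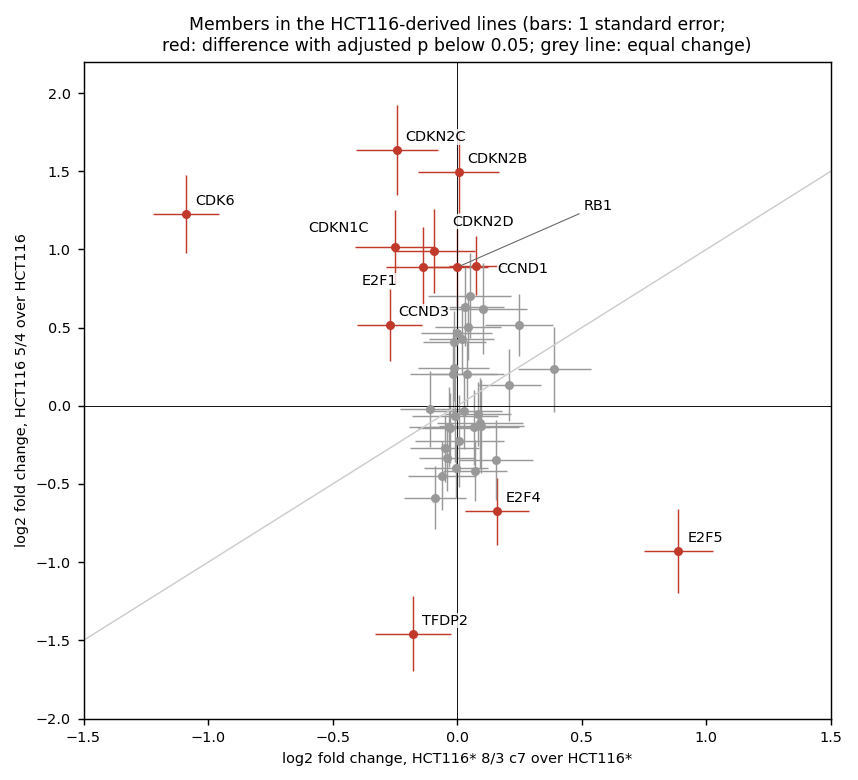
Log2 fold change in HCT116* 8/3 c7 over HCT116* (horizontal axis) against that in HCT116 5/4 over HCT116 (vertical axis), 1 point per gene. Bars are 1 standard error, red points are the 12 genes whose fold changes differ at an adjusted p below 0.05, and the grey line marks equal change. CDK6 and E2F5 lie in opposite corners.

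In RPE1 5/3 12/3, the 4 genes that rose lie on gained chromosomes. CCNB1, cyclin B1 (chr5:68462962-68474072), had implied means of 1622 and 3216 normalized reads, a log2 fold change of 0.99 ± 0.24 with an adjusted p of 0.00049 in the authors' DESeq2 table. CCNH, the cyclin of the CDK-activating kinase (chr5:86614233-86708747), rose by 0.83 ± 0.18, CDC25C, a phosphatase that activates CDK1 (chr5:137620958-137674044), by 0.75 ± 0.23, and E2F7, an atypical E2F (chr12:77415028-77459349), by 0.63 ± 0.22. CCNE1 on chromosome 19 fell from an implied 105 to 46.8 normalized reads, at -1.17 ± 0.30 with an adjusted p of 0.00094 in the same DESeq2 table. CCNE2 had -0.12 ± 0.22, so that 1 of the 2 E cyclins was called. CDKN1B and WEE1 had adjusted p values of 0.0092 and 0.033 in the authors' DESeq2 table but fold changes of 0.54 and -0.47. E2F8 had -0.62 ± 0.28 and was not called. Outside chromosomes 5 and 12, 1 of 33 genes was called in this line, where 14.5% of all genes outside them were.

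In RPE1* 21/3, CCND2 (cyclin D2, chr12:4378937-4414519) fell from an implied 93.5 to 5.27 normalized reads, with a log2 fold change of -4.15 ± 0.42 (adjusted p 7.54e-20 in the authors' DESeq2 table). Its mean over both groups lay at the 7th percentile of the table per exon length. With the prior on the fold changes undone its value was -5.02. CCND2 had no value in the comparison of RPE1 5/3 12/3 with RPE1, so its level in RPE1 without H2B-GFP is not known here. Whether the level in RPE1* is typical of RPE1 was not tested. CCND1, which was far more abundant, had 0.58 ± 0.29 with an adjusted p of 0.50 in the same DESeq2 table. CDK6 had 0.49 ± 0.26, CDKN2D 0.55 ± 0.24, and the remaining genes lay between -0.33 and 0.44. None of the 43 genes lies on chromosome 21.

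The fold changes of the 2 RPE1-derived lines differed for 2 of 42 genes, beside 9.32% of all 12923 genes. CCNE1 was lower in RPE1 5/3 12/3, by -1.26 ± 0.42 (95% interval -2.09 to -0.43), and CCNH was higher by 0.89 ± 0.27. CCNB1, CDC25C and E2F7 were called in RPE1 5/3 12/3 alone, and their differences from RPE1* 21/3 did not pass the test.

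Of the 43 genes, 5 lie on chromosome 5, which is gained both in HCT116 5/4 and in RPE1 5/3 12/3. In HCT116 5/4, where 4 copies against 2 give a log2 ratio of 1.0, 0 of the 5 were called and 2 had an unadjusted p below 0.05 in the authors' DESeq2 table, while 58.9% of all genes on the chromosome were called. Their median was -0.02, against 0.79 for the 620 genes of the chromosome, and all 5 intervals excluded 1.0. CCNB1 had -0.13 ± 0.30 and CDK7 -0.02 ± 0.24. These 2 genes lie 56.5 kb apart, and the 43 genes within 5 Mb had medians of -0.11 around each of them. The other 3 lie among genes that were raised. SKP2 had 0.41 ± 0.19 where its neighbours had a median of 0.91, CCNH had 0.50 ± 0.21 beside 0.74 and CDC25C -0.06 ± 0.30 beside 0.77. In RPE1 5/3 12/3, where 3 copies give 0.585, the same 5 genes had fold changes from 0.15 to 0.99 with a median of 0.75, against 0.53 for the chromosome. CCNB1 had 0.99 there, and its neighbour CDK7 had 0.31 ± 0.19 within genes of a median of 0.47. 4 of the 5 intervals held 0.585, and that of SKP2 (0.15 ± 0.18) did not. The copy number of the stretch around CCNB1 and CDK7 was not tested.

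On chromosome 12, the spontaneous gain of RPE1 5/3 12/3, CDK2 had 0.37 ± 0.20, CDK4 0.43 ± 0.22, CDKN1B 0.54 ± 0.17 and E2F7 0.63 ± 0.22, and the intervals of all 4 held 0.585. The chromosome had a median of 0.43. The median over the long arm of chromosome 11 was 0.40 in this line although no gain is labelled there, and CCND1, the only gene of the set on that arm, had 0.18 ± 0.16 with an interval of -0.14 to 0.49. On chromosome 8 in HCT116* 8/3 c7, the median of 467 genes was 0.22, below the copy ratio of 0.585. The interval of E2F5, 0.62 to 1.16, lay above both values, and that of CCNE2, 0.10 to 0.68, held both. The median and these intervals keep the prior, and undoing it raised fold changes in this line by a median of 1.22 times.

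**Figure D3:**
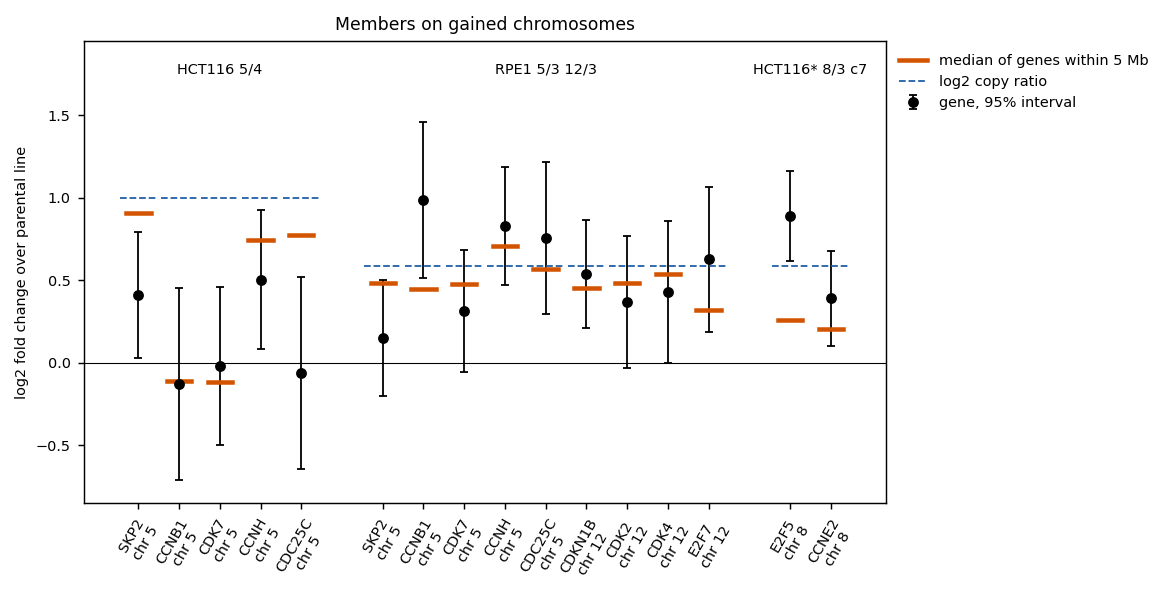
Log2 fold change over the parental line (vertical axis) of each gene on a gained chromosome, with its 95% interval, grouped by aneuploid line. Orange bars give the median of all genes within 5 Mb and blue dashes the log2 copy ratio. The 5 chromosome 5 genes of HCT116 5/4 lie below the dashes at 1.0, whereas 8 of the 9 intervals in RPE1 5/3 12/3 reach 0.585.

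HCT116 5/4 and RPE1 5/3 12/3 share the gain of chromosome 5, and their fold changes differed for 10 of 42 genes, beside 18.5% of all 12273 genes. CCNB1 was lower in HCT116 5/4 by -1.12 ± 0.38, and it was the only one of the 5 chromosome 5 genes to differ. The test is of equal fold changes, whereas the log2 copy ratios of chromosome 5 are 1.0 in HCT116 5/4 and 0.585 in RPE1 5/3 12/3. CDK4 was lower by -1.01 ± 0.30 and TFDP2 by -1.26 ± 0.30. CDKN2B was higher by 1.66 ± 0.37, CDKN2C by 1.36 ± 0.35, E2F8 by 1.33 ± 0.39, CDK6 by 1.31 ± 0.34, CCNE1 by 1.30 ± 0.38, RB1 by 0.96 ± 0.32 and CCND1 by 0.72 ± 0.25. E2F8 had fold changes of 0.71 in HCT116 5/4 and -0.62 in RPE1 5/3 12/3, and CDK4 had -0.59 and 0.43.

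Levels were compared between genes as the mean normalized count per kb of exon, within each table, since the tables were normalized separately and hold the mean of a line and its parental line. Exon lengths were those of GENCODE, whereas the authors counted reads on RefSeq exons. The effect of this difference was not tested. CCND1 was the highest cyclin in all 4 tables, at the 99th percentile of genes. CDK4 was the highest CDK, at 857 to 1333 normalized reads per kb, and CDK6 the lowest of the 5, at 159 to 302. The inhibitors differed by origin. CDKN2B and CDKN2C lay at the 28th to 49th percentile of genes in the HCT116 tables and at the 76th to 81st in the RPE1 tables. CDKN2A lay at the 51st and 47th percentile in the HCT116 tables and at the 88th and 87th in the RPE1 tables. Its place depended on the length used, since its longest transcript has 1052 bases against 3885 bases of exon, and with that length it lay at the 78.5th and 74.5th percentile in the HCT116 tables and at the 95.9th and 95.7th in the RPE1 tables. CDKN1C was at the 62nd and 41st percentile in the HCT116 tables and at the 16th and 13th in the RPE1 tables. CCNE1 was at the 70th and 76th percentile in the HCT116 tables and at the 23rd and 31st in the RPE1 tables, so its fall in RPE1 5/3 12/3 was that of a scarce transcript. TFDP1 was the highest and E2F5 the lowest of the E2F and DP genes in each table. These percentiles are descriptions, and HCT116 and RPE1 were not compared in a test of levels.

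**Figure D4:**
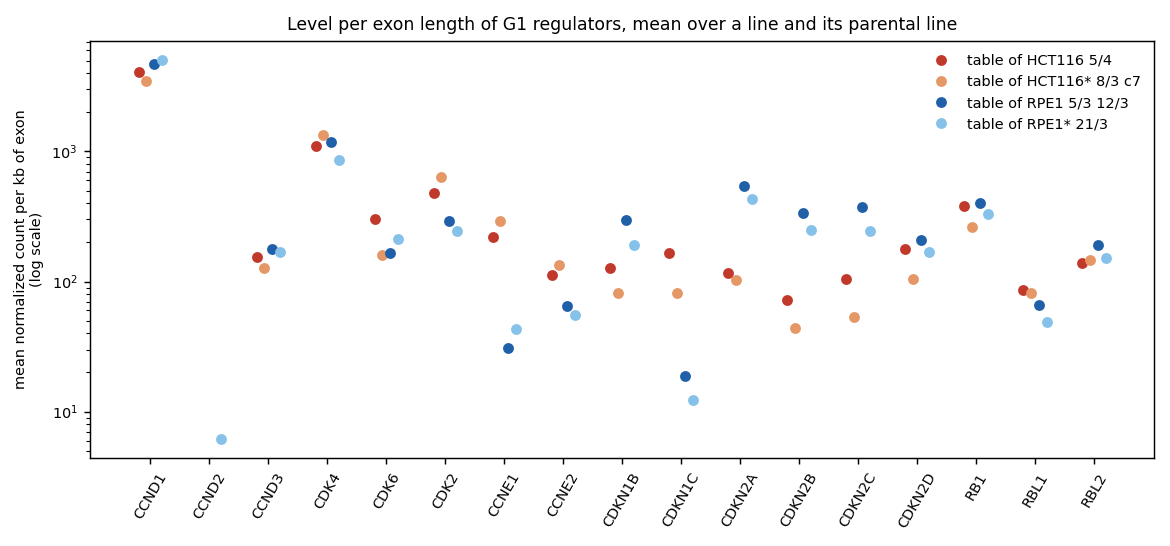
Mean normalized count per kb of exon (log scale) of G1 regulators in each of the 4 tables, 1 colour per table, as the mean over an aneuploid line and its parental line. CCND1 and CDK4 lie above the other genes, and CDKN2A, CDKN2B and CDKN2C lie higher in the RPE1 tables (blue) than in the HCT116 tables (red).

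The standard errors of the G2/M genes, and of other E2F targets in 3 lines, were wide for their level. Each gene was ranked by its standard error among the 200 genes of most similar mean in the same table, where a typical gene stands at the 50th percentile. The median rank of the 10 G2/M genes was 94.0 in HCT116 5/4 against 48.0 for the other genes of the set, 99.5 against 74.2 in HCT116* 8/3 c7, 90.8 against 52.2 in RPE1 5/3 12/3 and 91.2 against 76.5 in RPE1* 21/3. PKMYT1 and E2F1 stood at the 100th percentile in RPE1* 21/3, with standard errors of 0.55 and 0.54. Among 13 G2/M genes outside the set, 11, 13, 6 and 11 stood above the 90th percentile in the same order of lines. The 29 E2F targets outside the set had median ranks of 57.0 in HCT116 5/4, 96.0 in HCT116* 8/3 c7, 93.5 in RPE1 5/3 12/3 and 98.0 in RPE1* 21/3, so that wide errors were not particular to the G2/M genes. The source of these wide errors was not tested.

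**Figure D5:**
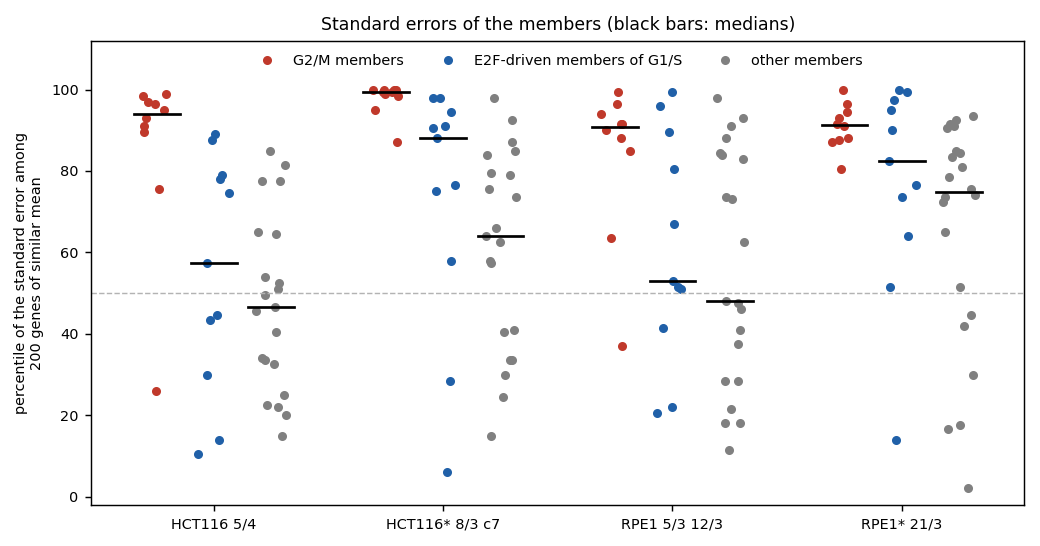
Percentile of each gene's standard error among 200 genes of similar mean (vertical axis) in the 4 lines, for G2/M genes (red), E2F-driven G1/S genes (blue) and the other genes of the set (grey), with black bars at the medians. The red points lie mostly above 80 in each line.

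In the GENCODE annotation, exons of 9 of the genes overlap those of a gene on the opposite strand. No strand setting is named for the read counting, so reads of both genes cannot be told apart there. Whether such reads were counted for either gene is not stated. The overlap was largest for CDK4, at 1369 of 3094 bases shared with TSPAN31, and CCNE2, at 1629 of 4397 bases shared with INTS8. CDKN2A shared 593 of 3885 bases with CDKN2B-AS1, CCNH 771 of 5981 with RASA1 and CDC25C 293 of 3329 with FAM53C.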

How the data were processed

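Messenger RNA of 4 aneuploid lines and their parental lines was sequenced by the authors, with 3 libraries per group and 24 in all. Per the labels and the study's methods, adapters were removed with cutadapt, reads were mapped to hg19 with TopHat2 2.0.10 keeping 1 location per read, counted on exons of RefSeq genes with featureCounts 1.4.3 and compared with DESeq2, whose version is not given in the sources used here. The deposited tables hold the mean signal (counts divided by size factors, averaged by the authors over both groups), the authors' log2 fold change and standard error, their Wald statistic (a score) and the authors' p-values, raw and adjusted by the Benjamini-Hochberg method. They hold the authors' own comparisons, which are used here as such. Single libraries were not used, so depth per library is unknown from these tables and the standard errors, which a prior may narrow, give the precision.

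The 43 genes and all lists were chosen with earlier results of these data known. Among genes whose mean reached 10, calls were made at an adjusted p below 0.05 and an absolute log2 fold change above 0.6. Differences between lines were tested for 3 pairs of lines without shared libraries, with the standard errors combined and p-values adjusted over all genes (Python 3.11.15, scipy 1.17.1, pandas 2.3.3). The calculation was checked on simulated fold changes with normal errors of the deposited size and no prior. Such values cannot show how a prior affects the differences. Genes were placed with GENCODE on GRCh37, which found 94.6% to 95.1% of the genes of each table, and chromosome coordinates are on that build unless GRCh38.p14 is named. Named are the genes called in a line or between lines, those on gained chromosomes or the long arm of chromosome 11, and the 3 highest and lowest levels of each family. Of the other pathway lists, counts and called genes are given. Genes named outside this rule were chosen after their values were seen. The alternatives were other thresholds on the mean and the fold change, another adjustment, centring on genes outside the gained chromosomes, undoing a prior that the ceiling of the standard errors points to (p-values of the calls as deposited) and another gene length.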

Additional observations from a re-analysis of the deposited data

Results flagged for a closer look

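The log2 fold changes of the genes below differed between lines in the Wald test of the difference, at an adjusted p below 0.05 over all genes. Between HCT116 5/4 and HCT116* 8/3 c7 (the first minus the second), the difference was 0.82 for CCND1, 0.79 for CCND3, 2.32 for CDK6, 1.27 for CDKN1C, 1.49 for CDKN2B, 1.88 for CDKN2C and 1.08 for CDKN2D. It was 0.89 for RB1, 1.03 for E2F1, -0.83 for E2F4, -1.82 for E2F5 and -1.28 for TFDP2. For RPE1 5/3 12/3 minus RPE1* 21/3, it was -1.26 for CCNE1 and 0.89 for CCNH. Between HCT116 5/4 and RPE1 5/3 12/3, it was -1.12 for CCNB1, 0.72 for CCND1, 1.30 for CCNE1, -1.01 for CDK4, 1.31 for CDK6, 1.66 for CDKN2B and 1.36 for CDKN2C. It was 0.96 for RB1, 1.33 for E2F8 and -1.26 for TFDP2. The comparisons of HCT116 5/4 with the 2 other lines share its own libraries and those of HCT116.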

How the results depend on the processing

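With an absolute log2 fold change above 1 in place of 0.6, 5 genes were called in HCT116 5/4 (CDK6, CDKN1C, CDKN2B, CDKN2C and TFDP2), 1 in HCT116* 8/3 c7 (CDK6) and 1 in RPE1 5/3 12/3 (CCNE1). With a mean of at least 100, the calls of CCND2 in RPE1* 21/3 and CCNE1 in RPE1 5/3 12/3 were left out. The count in RPE1* 21/3 became 0, and 1 gene (CCNH) differed between the RPE1-derived lines. With the prior on the fold changes undone, the median of the 2 genes on chromosome 8 in HCT116* 8/3 c7 was 0.79 in place of 0.64. The other 41 recomputed counts and medians stayed within 1.5 times or within the error of the reported value, and no direction turned. Among these, with a mean of at least 100, 8 genes in place of 10 differed between HCT116 5/4 and RPE1 5/3 12/3. CCNE1 and E2F8 were left out there, with means of 76.1 and 97.9 in RPE1 5/3 12/3. Single levels did move with the length used, most of all that of CDKN2A, from the 51.4th to the 78.5th percentile in the table of HCT116 5/4. All 24 differences between lines stayed below an adjusted p of 0.05 with the prior undone. Undoing it raised fold changes by a median of 1.22 times in HCT116* 8/3 c7 and 1.05 times in RPE1* 21/3, and its size was poorly defined in the other lines. No paired analysis was possible because the deposited tables hold no values of single libraries, and for the same reason leaving out each replicate and a comparison of count models were not run. How far 1 library decides a value is therefore unknown.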

Other observations

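Further genes of the pathway were called in 1 or 2 lines. In HCT116 5/4, where 20.6% of all genes were called and 10.8% were higher, 3 of 8 genes of the DREAM and MMB complexes, which repress or activate cell cycle genes, rose: LIN9 by 0.85 ± 0.27, LIN37 by 0.76 ± 0.26 and MYBL1 by 0.86 ± 0.30. MYBL1 also rose in RPE1* 21/3, by 0.87 ± 0.24, and MYBL2 fell in RPE1 5/3 12/3, at -1.06 ± 0.26. Of the other cyclins, CCNO on chromosome 5 rose in HCT116 5/4 by 1.63 ± 0.25 and CCNG1 on chromosome 5 rose in RPE1 5/3 12/3 by 1.30 ± 0.21. CCNJ fell in both lines, at -0.73 ± 0.27 and -0.62 ± 0.24. SKP1, a subunit of the SCF ubiquitin ligase on chromosome 5, rose in both, by 1.24 ± 0.20 and 0.68 ± 0.17. CDK17 on chromosome 12 rose in RPE1 5/3 12/3 by 1.13 ± 0.18, and CDK5 rose in HCT116 5/4 by 0.62 ± 0.21. KIF20A, a mitotic kinesin on chromosome 5, rose in RPE1 5/3 12/3 by 1.54 ± 0.24. Over the lists of other cyclins, other CDKs, ubiquitin ligase subunits, DREAM and MMB genes, E2F targets and G2/M genes, the authors' DESeq2 table of HCT116* 8/3 c7 had 0 called genes, and at most 2 genes of any list had an unadjusted p below 0.05.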
